A study of Sus scrofa with 18 samples.

Results

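Oxidative phosphorylation genes were described here through the H3K4me3 and H3K27ac peaks at their ends in the pig myometrium. The members were the protein-coding RefSeq genes of Sscrofa11.1 on chromosomes 1 to 18 and X whose symbols begin with NDUFA, NDUFB, NDUFC, NDUFS, NDUFV, SDHA to SDHD, UQCR, COX4 to COX8, ATP5F, ATP5M or ATP5P. These symbols matched 65 of 19484 protein-coding genes. The members were 7 core and 30 accessory genes of complex I, 8 assembly factors of complex I (NDUFAF1 to NDUFAF8), 4 subunits of complex II with 3 assembly factors (SDHAF1 to SDHAF3), 2 subunits of complex III, 10 of complex IV and 1 of complex V. The assembly factors share the prefixes of the subunits but are not part of the finished enzymes.

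Chromatin was profiled by CUT&Tag, in which an antibody guides a transposase to a histone mark, in uterine muscle of Yorkshire gilts dissected on day 15 from the mesometrial side. GD15M_CM was the inner circular muscle layer of pregnant gilts, GD15M_LM the outer longitudinal layer of pregnant gilts, and CD15M_CM the circular layer of gilts in the oestrous cycle. Each group came from 2 gilts and had its own IgG control. The 12 libraries of the marks and the 6 of IgG were analysed by the authors as pools of both gilts, so that each mark and group gave 1 peak list. There is therefore no spread between gilts behind any value below, no difference was tested, and none is shown to exceed the variation between animals.

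Oxidative phosphorylation is the last stage of respiration, in which complexes I and II take electrons from NADH and succinate, complexes III and IV pass them to oxygen, and the proton gradient built on the way drives ATP synthase, complex V. Most subunits are encoded in the nucleus, made in the cytosol and imported, so the promoters of many scattered genes supply each complex. H3K4me3 marks promoters of active genes, and H3K27ac marks active promoters and enhancers. Smooth muscle of the uterus relies on both respiration and glycolysis for its contractions.

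Each peak carried a fold enrichment over IgG and a length. To set the lists side by side, the fold enrichment of each peak was turned into its percentile among all peaks of the same list, which for H3K4me3 held 33599 peaks (GD15M_CM), 31910 peaks (GD15M_LM) and 36331 peaks (CD15M_CM), and for H3K27ac 79877, 57010 and 82037. A gene took the highest percentile among peaks within 3 kb of either of its ends, or 0 without a peak. A percentile is a rank and not an amount of mark, and a gene near the top of its list has little room to rank higher. Both marks of a group were set against the same IgG control, and in whole tissue fewer cells of a type cannot be told apart from less mark per cell.

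The genes of oxidative phosphorylation carried both promoter marks almost without exception in all 3 tissues. H3K4me3 peaks were found at 64 of 65 members in GD15M_CM, 64 in GD15M_LM and 65 in CD15M_CM, while 70.8%, 71.7% and 72.6% of all protein-coding genes had such a peak. H3K27ac peaks were found at 65 of 65 members in each tissue, against 70.4%, 69.4% and 72.2% of all genes in GD15M_CM, GD15M_LM and CD15M_CM. The 95% Wilson interval was 91.8% to 99.7% for 64 of 65 and began at 94.4% for 65 of 65, and it covers counting error only. With a stricter peak threshold (−log10 p at or above 10, fold enrichment at or above 5) H3K4me3 stayed at 64 members in each list, beside 66.0%, 67.7% and 68.0% of all genes, but H3K27ac was left at 42, 47 and 46 members, beside 35.0%, 40.6% and 33.3% of all genes.

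At the deposited threshold the peaks of these genes ranked high in their lists. The median H3K4me3 percentile of the members was 86.8 in GD15M_CM, 86.4 in GD15M_LM and 88.2 in CD15M_CM, beside 81.3, 79.9 and 82.4 over the protein-coding genes that had a peak. For H3K27ac the median of the members was 90.5, 86.6 and 90.6, beside 86.7, 83.0 and 84.7 over the genes with a peak. The H3K27ac list of GD15M_LM held the fewest peaks, and the part of list size in its lower median was not tested. With equal numbers of top peaks from each list, which leaves GD15M_LM as it is, the members' H3K27ac medians were 86.7, 86.6 and 86.4. Ranked by −log10 p they stayed apart, at 94.0, 87.7 and 93.6. Among the stricter peaks the members' medians were lower, at 71.8, 73.9 and 74.0 for H3K4me3, beside 40.5, 43.3 and 43.6 over all protein-coding genes, and at 24.6, 33.4 and 27.9 for H3K27ac, where the median of all genes was 0 for want of a peak. The cytosolic ribosomal protein genes, another large group of broadly used genes, had medians of 87.8, 86.9 and 88.7 for H3K4me3 and 94.4, 92.6 and 90.5 for H3K27ac over 82 genes. Oxidative phosphorylation genes thus lay near the ribosomal protein genes in rank for H3K4me3, and below them for H3K27ac in both pregnant tissues.

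**Figure D1:**
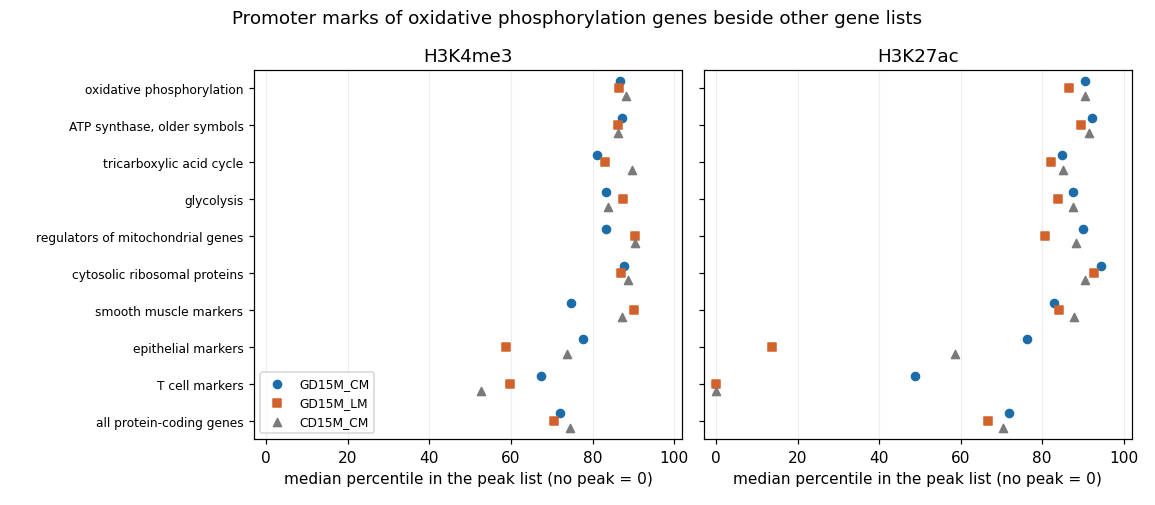
Median percentile of H3K4me3 (left) and H3K27ac (right) for gene lists in GD15M_CM (circles), GD15M_LM (squares) and CD15M_CM (triangles), where genes without a peak count as 0 and each point is 1 median from 1 pooled list. The oxidative phosphorylation genes sit between 86.4 and 88.2 for H3K4me3 and between 86.6 and 90.6 for H3K27ac, while epithelial and T cell markers lie lower and spread more between tissues.

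At fold enrichment itself, the median over members with a peak was 18.7 in GD15M_CM, 23.7 in GD15M_LM and 23.4 in CD15M_CM for H3K4me3, and 5.46, 5.86 and 5.47 for H3K27ac. Over all genes with a peak the H3K4me3 median was 16.1, 19.7 and 19.8 in the same order, so the lower fold enrichment in GD15M_CM was seen in the genome at large and percentiles were used for the comparisons. The median length of the members' highest peaks was 2594, 2616 and 2904 bp for H3K4me3 and 1595, 1216 and 1638 bp for H3K27ac in the same order. Longer peaks had higher fold enrichment over all H3K4me3 peaks (Spearman rho 0.801 to 0.826 across peaks of a list). Among the members' highest peaks rho was 0.111 to 0.253 across 64 or 65 genes. For H3K27ac rho was 0.463 to 0.540 over all peaks and 0.018 to 0.086 among the members. These correlations are across genes or peaks that share a library, and are given as a description. The members give only their highest peak, and the highest peaks of all genes were not read this way. The lower rho is therefore not shown to be particular to the members.

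**Figure D2:**
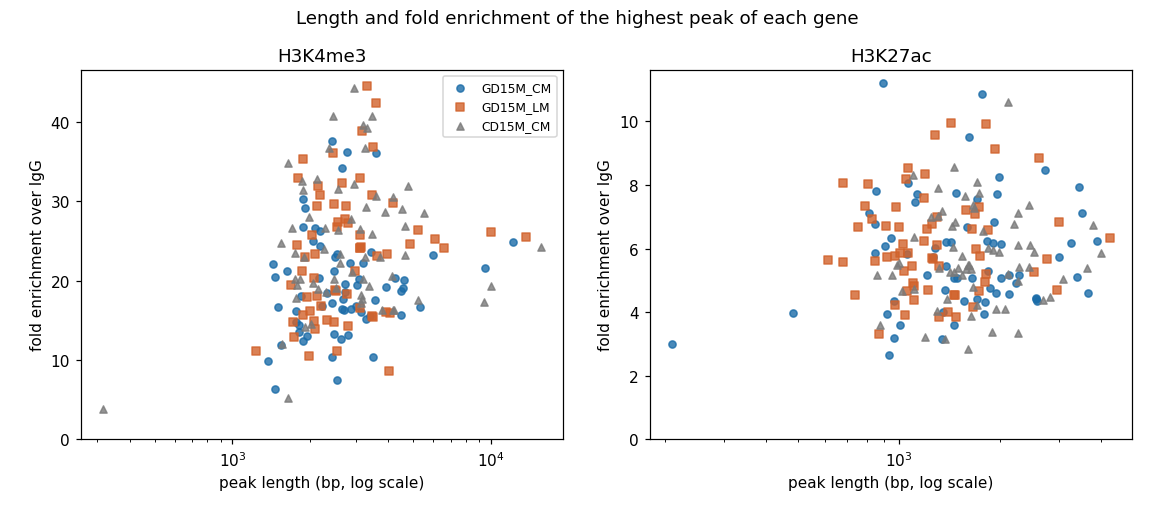
Length in bp (log scale) against fold enrichment over IgG for the highest H3K4me3 peak (left) and H3K27ac peak (right) of each oxidative phosphorylation gene, with 1 point per gene in GD15M_CM (circles), GD15M_LM (squares) and CD15M_CM (triangles). Over all members fold enrichment ranges from 3.78 to 44.5 for H3K4me3, lowest at the 315 bp peak of COX8H, and from 2.65 to 11.2 for H3K27ac.

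In position, most highest peaks of the members covered a gene end, and the marks overlapped. These peaks were picked for lying within 3 kb of an end. The counts of position and overlap are not given over all genes, so they describe the members only. The highest H3K4me3 peak covered a gene end in 58 members in GD15M_CM, 58 in GD15M_LM and 60 in CD15M_CM, and the highest H3K27ac peak in 51, 55 and 55. Every highest H3K4me3 peak of a member overlapped an H3K27ac peak of the same tissue by at least 1 bp, and H3K27ac covered at least 50% of it in 58 of 64 members in GD15M_CM, 39 of 64 in GD15M_LM and 57 of 65 in CD15M_CM. The median share of the H3K4me3 peak under H3K27ac was 66.0%, 53.0% and 71.1%, lowest in GD15M_LM, where H3K27ac peaks were also shortest. The members are short genes, with a median length of 7166 bp against 20697.5 bp over all protein-coding genes, and for 46 of 65 another annotated gene ends within 3 kb of a highest peak. A peak can then belong to the neighbour: NDUFB5 lies beside MRPL47, NDUFS6 beside MRPL36, SDHD beside TIMM8B, UQCRB beside MTERF3 and NDUFA7 beside RPS28. The direction of transcription was not in the annotation table, so either end of a gene was accepted.

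The longest H3K4me3 peaks were found in such crowded places. NDUFB10, an accessory subunit on chr3:40003109-40005650, had peaks of 12176, 13703 and 15668 bp in GD15M_CM, GD15M_LM and CD15M_CM, longer than the gene and with RPS2, TBL3, RNF151, NOXO1 and RPL3L nearby. NDUFAF3, an assembly factor on chr13:31656941-31658087, had peaks of 9546, 10010 and 10057 bp in a cluster with IMPDH2, QRICH1, WDR6 and DALRD3. NDUFAF8, another assembly factor, had peaks of 4509, 6611 and 9380 bp. These 3 peaks were longest in CD15M_CM. For H3K27ac the longest peaks were 4580 bp at NDUFA6 in CD15M_CM, 4243 bp at NDUFB10 in GD15M_LM and 4183 bp at NDUFS8 in GD15M_LM.

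Of the 65 genes, 38 ranked at the 75th percentile or above for H3K4me3 in all 3 lists and 36 did so for H3K27ac, which is 58.5% and 55.4% of members beside 33.7% and 28.7% of all protein-coding genes. At the 90th percentile or above in all 3 lists were 10 genes for H3K4me3 (NDUFA9, NDUFB1, NDUFB3, NDUFB6, NDUFAF6, NDUFS1, NDUFS3, NDUFV2, SDHAF2 and COX6A1) and 13 for H3K27ac, beside 6.74% and 9.07% of all genes. The highest mean H3K4me3 percentiles over the 3 lists were 98.0 at NDUFB1, 97.9 at NDUFB3 and 97.8 at NDUFV2. The highest for H3K27ac were 98.5 at NDUFAF6, 98.4 at NDUFV2 and 98.3 at NDUFB6. For NDUFB6 the GD15M_CM and GD15M_LM peaks lay off the gene end with TOPORS nearby. The CD15M_CM peak lay at the other end of NDUFB6, so its mean joins different places. The range of a gene's percentile over the 3 lists had a median of 10.6 points for H3K4me3 and 15.7 points for H3K27ac, and it stayed under 10 points in 31 and 21 of 65 members respectively. Ranges are not given over all genes, so these values are not shown to be particular to the members.

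**Figure D3:**
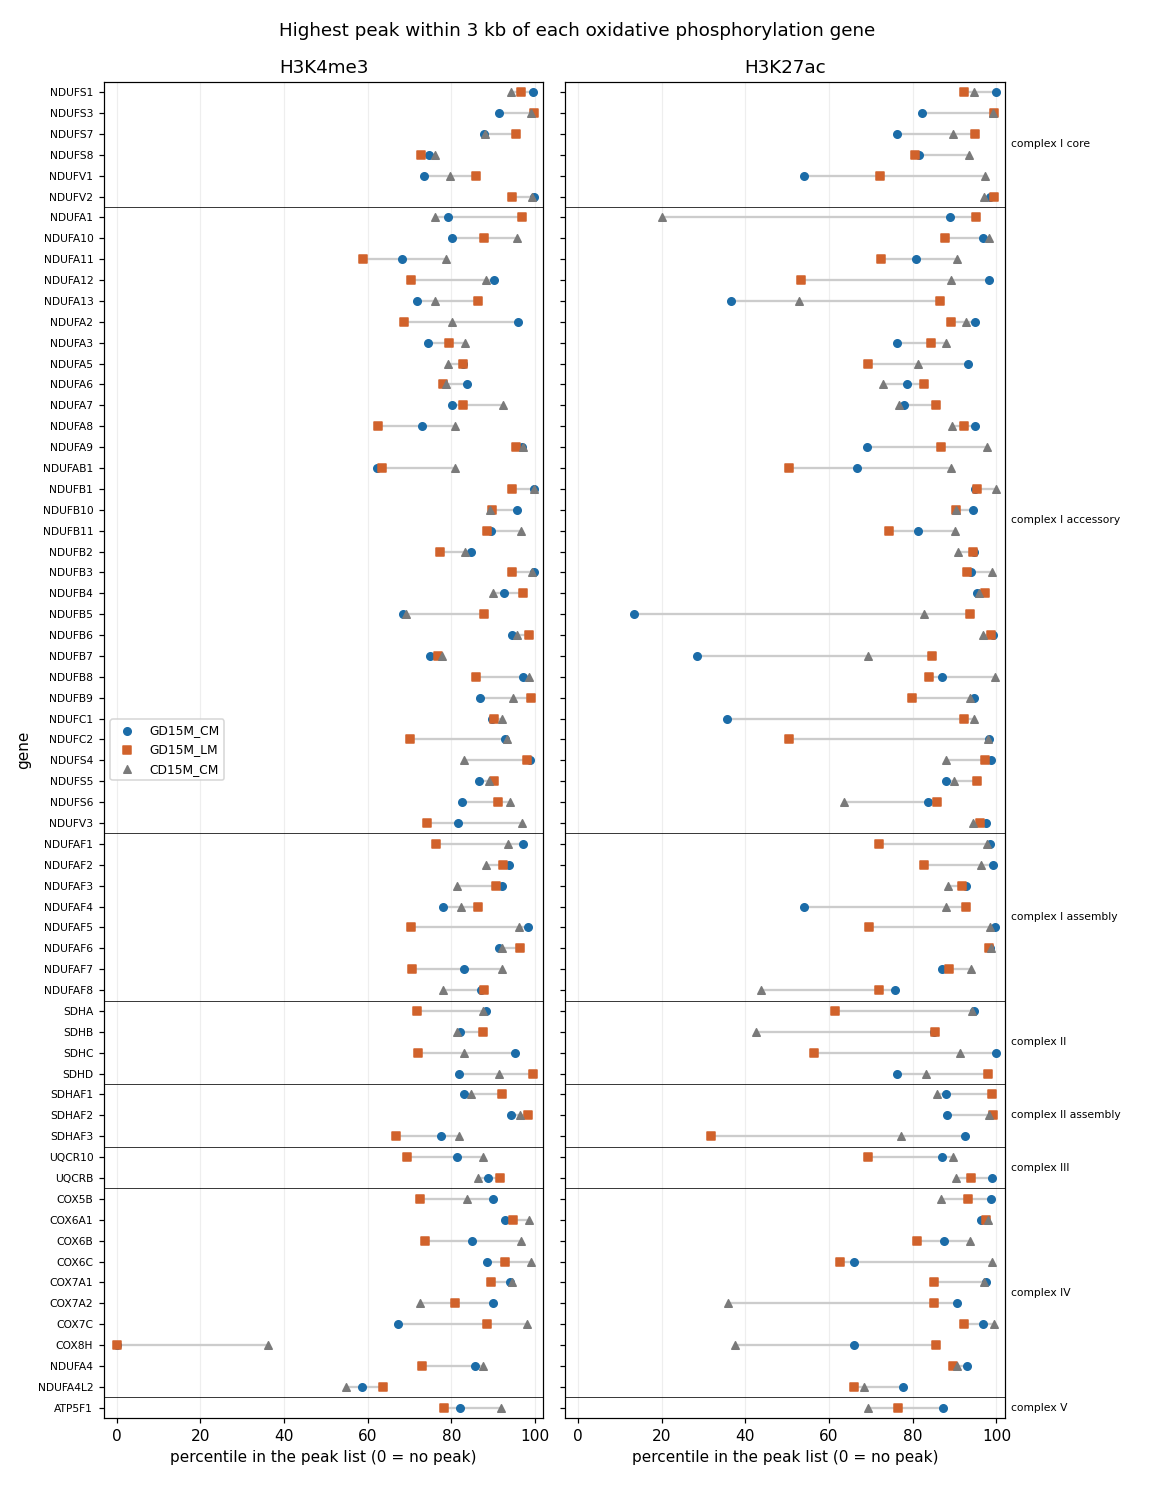
Percentile of the highest H3K4me3 peak (left) and H3K27ac peak (right) within 3 kb of 64 of the 65 genes, ordered by complex, in GD15M_CM (circles), GD15M_LM (squares) and CD15M_CM (triangles), with a grey line over the range of the 3 lists and 0 for no peak. Most genes lie above the 75th percentile for H3K4me3, COX8H is at 0 in both pregnant tissues, and H3K27ac spreads more widely, over 80.4 points at NDUFB5.

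Among the core subunits of complex I, NDUFV1 binds the flavin that receives electrons from NADH, NDUFV2, NDUFS1 and NDUFS8 carry iron-sulphur clusters, and NDUFS7 lies at the quinone site. NDUFV2 had H3K4me3 percentiles of 99.7 in GD15M_CM, 94.4 in GD15M_LM and 99.3 in CD15M_CM and H3K27ac percentiles of 98.5, 99.4 and 97.1. NDUFS1 had 99.5, 96.7 and 94.1 for H3K4me3 and 99.9, 92.1 and 94.7 for H3K27ac. Both subunits ranked at 92.1 or above in every list, although the GD15M_LM peak of NDUFV2 did not overlap the GD15M_CM peak. NDUFS3 had 91.4, 99.8 and 99.2 for H3K4me3 and 82.3, 99.5 and 99.3 for H3K27ac. NDUFS7 had 87.9, 95.5 and 88.0 for H3K4me3 and 76.2, 94.9 and 89.7 for H3K27ac, so NDUFS3 ranked lowest in GD15M_CM on both marks, while for H3K4me3 NDUFS7 was level between the circular lists. The highest H3K27ac peak of NDUFS7 in GD15M_CM lay at the other end of the gene from those of the other lists. NDUFS8 ranked lower for H3K4me3, at 74.7, 72.9 and 76.2, with little change between tissues. Its H3K27ac percentiles were 81.4, 80.5 and 93.3, from peaks that did not overlap between GD15M_CM and GD15M_LM. NDUFV1, on chr2:4958508-4964211, had 73.4, 86.0 and 79.6 for H3K4me3 and 54.0, 72.2 and 97.2 for H3K27ac.

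The 30 accessory subunits surround this core. Their median H3K4me3 percentile was 85.7 in GD15M_CM, 87.1 in GD15M_LM and 89.0 in CD15M_CM, and that of H3K27ac was 91.1, 87.2 and 90.2. NDUFB1 and NDUFB3, small subunits of the membrane arm, had H3K4me3 percentiles of 99.7, 94.4 and 99.7 and of 99.8, 94.6 and 99.3. NDUFA11, also of the membrane arm, had the lowest mean H3K4me3 percentile of the accessory subunits, at 68.2, 58.9 and 78.7. NDUFB7 and NDUFA13 had the lowest mean H3K27ac percentiles of all members, at 28.5, 84.6 and 69.4 for NDUFB7 and at 36.6, 86.6 and 52.8 for NDUFA13. In GD15M_CM the highest H3K27ac peak of NDUFB7 was 210 bp long and did not overlap that of GD15M_LM.

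Complex II, which is also an enzyme of the tricarboxylic acid cycle, is made of the flavoprotein SDHA, the iron-sulphur protein SDHB and the membrane anchors SDHC and SDHD. SDHA had H3K4me3 percentiles of 88.2 in GD15M_CM, 71.8 in GD15M_LM and 87.6 in CD15M_CM and H3K27ac percentiles of 94.7, 61.4 and 94.2. SDHC had 95.3, 72.2 and 83.1 for H3K4me3 and 99.95, 56.4 and 91.4 for H3K27ac. SDHD went the other way, with 81.8, 99.5 and 91.3 for H3K4me3 and 76.2, 97.9 and 83.2 for H3K27ac. Thus SDHA and SDHC ranked lowest in GD15M_LM on both marks while SDHD ranked highest there. SDHB had 82.1, 87.6 and 81.4 for H3K4me3 and 85.2, 85.3 and 42.6 for H3K27ac. The highest H3K27ac peaks of SDHB in GD15M_CM and GD15M_LM did not overlap. Nor did those of SDHC in GD15M_CM and CD15M_CM. The factors SDHAF1 and SDHAF2, which serve the iron-sulphur clusters and the flavin of the enzyme, had H3K27ac percentiles of 88.0, 98.9 and 85.7 and of 88.3, 99.2 and 98.2. SDHAF3 had 92.4, 31.9 and 77.1. Its H3K4me3 percentiles were 77.5, 66.7 and 81.7.

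The annotation held 2 subunits of complex III under the symbols searched, both small. UQCRB had H3K4me3 percentiles of 88.8 in GD15M_CM, 91.6 in GD15M_LM and 86.4 in CD15M_CM, and UQCR10 had 81.3, 69.3 and 87.5. For H3K27ac the values were 98.9, 93.9 and 90.3 at UQCRB and 87.1, 69.4 and 89.6 at UQCR10. ATP5F1, the older symbol of the peripheral stalk subunit b of ATP synthase, had 82.1, 78.3 and 91.9 for H3K4me3 and 87.3, 76.5 and 69.4 for H3K27ac. A further 14 ATP synthase genes under older symbols were outside the symbol rule. All 14 had both marks in all 3 lists, with median H3K4me3 percentiles of 87.1, 86.1 and 86.3 and H3K27ac percentiles of 92.3, 89.4 and 91.6.

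Several nuclear subunits of complex IV, cytochrome c oxidase, exist as isoforms, some found widely and others in heart and skeletal muscle. COX7A1, the heart and muscle isoform, had H3K4me3 percentiles of 94.1 in GD15M_CM, 89.5 in GD15M_LM and 94.6 in CD15M_CM, under peaks of 6002, 6105 and 4553 bp. COX7A2, the widely found isoform, had 89.9, 80.9 and 72.5 under peaks of 2168, 2064 and 1904 bp. For H3K27ac, COX7A1 stood at 97.6, 85.1 and 97.1 and COX7A2 at 90.5, 85.1 and 35.9. The isoform of muscle therefore ranked above the widely found isoform for H3K4me3 in all 3 lists, though its peak lies beside CAPNS1 and ZNF146. COX6A1, the widely found isoform of that subunit, had 92.8, 94.7 and 98.5 for H3K4me3 and 96.4, 97.6 and 98.0 for H3K27ac. Its highest H3K4me3 peaks in GD15M_CM and GD15M_LM did not overlap.

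COX8H, the heart and muscle isoform of the smallest subunit, was the only member without an H3K4me3 peak in a list. The gene lies on chr2:69199-70730 near the start of the chromosome's sequence. No H3K4me3 peak lay within 3 kb in GD15M_CM or GD15M_LM, and the nearest were 12677 and 12466 bp away. In CD15M_CM its highest H3K4me3 peak, chr2:73101-73415, was 315 bp long with a fold enrichment of 3.78, the 36.2nd percentile, and lay beyond the gene. H3K27ac percentiles at COX8H were 66.0, 85.5 and 37.5, from a peak on the same side of the gene in all 3 lists. Markers of striated muscle were likewise sparse, with an H3K4me3 peak at 1, 2 and 1 of 7 genes.

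NDUFA4, first assigned to complex I and now to complex IV, and its relative NDUFA4L2, which is known as a gene induced by low oxygen, differed in rank. NDUFA4 had H3K4me3 percentiles of 85.6 in GD15M_CM, 73.0 in GD15M_LM and 87.5 in CD15M_CM, and NDUFA4L2 had 58.5, 63.6 and 54.9. For H3K27ac the values were 92.9, 89.6 and 90.6 at NDUFA4 and 77.8, 65.8 and 68.3 at NDUFA4L2. NDUFA4 ranked above NDUFA4L2 on both marks in all 3 lists. COX5B, a nuclear subunit of complex IV on the matrix side, had 90.03, 72.6 and 83.9 for H3K4me3 and 98.8, 93.3 and 86.6 for H3K27ac.

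The comparison of GD15M_LM with GD15M_CM asks how the muscle layers of pregnant gilts differ. For H3K4me3, 7 of 64 members ranked at least 10 points higher in GD15M_LM, where 19.4% of all genes did, and 15 ranked at least 10 points higher in GD15M_CM, where 20.7% did. For H3K27ac, 13 of 65 ranked higher in GD15M_LM, against 23.7% of all genes, and 16 ranked higher in GD15M_CM, against 33.3%. The median difference, GD15M_LM minus GD15M_CM, was -1.06 points for H3K4me3 and -1.50 for H3K27ac, beside -0.47 and -1.99 over all genes. These medians lay close to 0 in both sets, and single members differed by far more. The balance of the H3K27ac counts turned with the scale, from 13 against 16 to 19 against 13 with equal numbers of top peaks and to 7 against 17 with ranks by −log10 p. The shares of all genes moved likewise, to 33.7% against 26.2% with equal numbers of top peaks and to 15.2% against 29.9% by −log10 p. For H3K4me3 the counts were 21 against 24 by rank among protein-coding genes, beside 30.02% and 28.5% of all genes, and 5 against 8 by −log10 p, beside 12.4% and 13.8%.

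On both marks at once, 8 of 64 members ranked at least 10 points higher in GD15M_CM, beside 10.9% of all genes with both marks in these lists. They were the complex I genes NDUFA12 and NDUFC2, the assembly factors NDUFAF1 and NDUFAF5, the complex II genes SDHA and SDHC with the assembly factor SDHAF3, and UQCR10 of complex III. Another 4 members ranked at least 10 points higher in GD15M_LM on both marks, beside 7.41% of all genes: NDUFA13, NDUFB5, NDUFV1 and SDHD. The differences of the marks went together over the 64 members with a Pearson r of 0.608 and a Spearman rho of 0.600, beside 0.382 and 0.401 over 12506 genes. The points of such a correlation share their libraries and the IgG control, whose part was not tested.

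**Figure D4:**
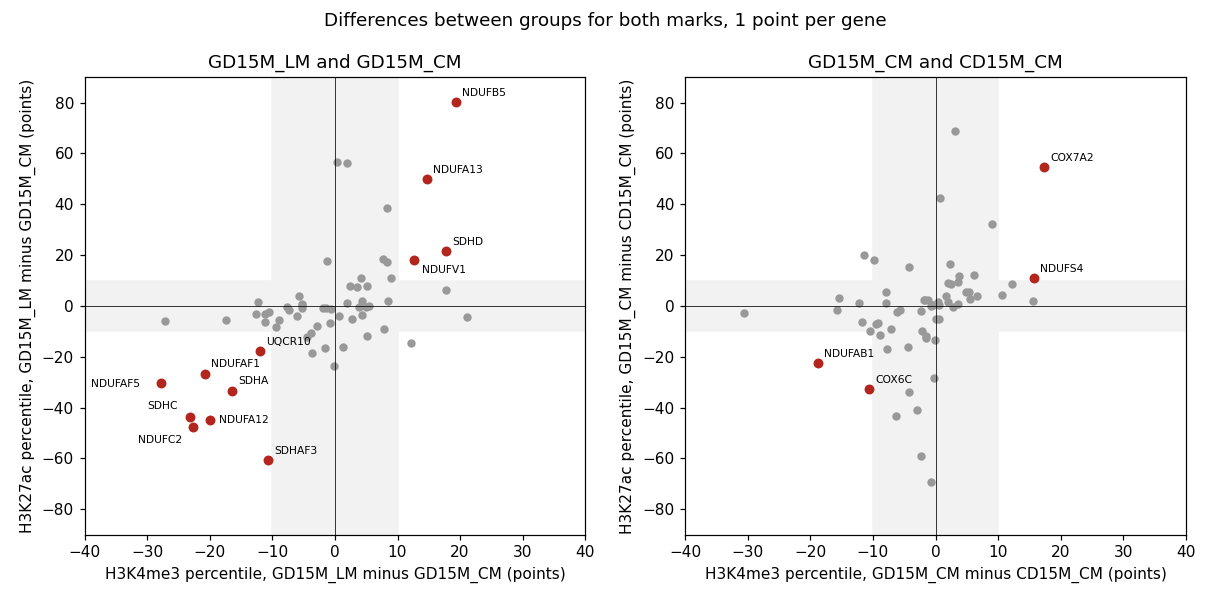
Difference in H3K4me3 percentile (horizontal) against difference in H3K27ac percentile (vertical) for each of the 64 members with an H3K4me3 peak in both lists, GD15M_LM minus GD15M_CM (left) and GD15M_CM minus CD15M_CM (right), with differences under 10 points in the grey bands. Named red points passed 10 points on both marks in the same direction, 12 genes on the left and 4 on the right.

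NDUFAF5, which modifies a core subunit during the assembly of complex I, lies on chr17:22480344-22508804. Its H3K4me3 peak had a fold enrichment of 29.1 in GD15M_CM, 14.9 in GD15M_LM and 31.4 in CD15M_CM, at the 98.3rd, 70.5th and 96.2nd percentile. Its H3K27ac peak had 9.51, 4.55 and 7.38, at 99.7, 69.5 and 98.4. GD15M_LM was low on both marks, but the peaks kept their place and length, with H3K4me3 over chr17:22479439-22481342 in GD15M_CM and chr17:22479383-22481456 in GD15M_LM. NDUFC2, of the membrane arm, had H3K4me3 fold enrichments of 22.2, 14.7 and 27.7 under peaks of 2853, 2465 and 2881 bp, and H3K27ac percentiles of 98.3, 50.5 and 97.9. NDUFA12, of the matrix arm, had H3K4me3 percentiles of 90.3, 70.3 and 88.3 and H3K27ac percentiles of 98.2, 53.4 and 89.1. NDUFC2 and NDUFA12 had no other annotated gene end near these peaks. NDUFA2, another subunit of the matrix arm, differed on H3K4me3, at 95.9, 68.7 and 80.3, and by less than 10 points on H3K27ac, at 94.8, 89.0 and 92.8.

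NDUFB5, of the membrane arm, showed the widest difference of the opposite kind. Its H3K4me3 peak had a fold enrichment of 10.4 in GD15M_CM, 24.1 in GD15M_LM and 12.0 in CD15M_CM, at 68.4, 87.7 and 69.2. Its H3K27ac peak had 2.65, 6.93 and 4.74, at 13.4, 93.7 and 82.6. The H3K27ac rank was thus low in GD15M_CM, from a peak at chr13:117656096-117657028 that GD15M_LM shared at chr13:117656115-117656942, beside the end of MRPL47, a gene of the mitochondrial ribosome. SDHD had H3K4me3 fold enrichments of 16.3, 42.4 and 25.8. For NDUFV1 the H3K27ac difference between the layers was 18.2 points by fold enrichment but -3.50 points by −log10 p. COX7C, a small subunit of complex IV, had the largest H3K4me3 difference in favour of GD15M_LM, from 67.3 in GD15M_CM to 88.4, with 98.0 in CD15M_CM. Its H3K27ac percentiles were 96.7, 92.3 and 99.4. NDUFC1, of the membrane arm, differed in H3K27ac between the layers, at 35.7 and 92.1, from peaks that covered its end. Its H3K4me3 percentiles of 89.8, 90.1 and 92.1 came from another place, off the gene end and with NAA15 nearby. The H3K27ac percentile of 94.7 in CD15M_CM came from that other place as well, so the marks are not compared at 1 site.

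Set against both circular lists, GD15M_LM ranked at least 10 points lower at 15 members for H3K4me3, where 12.5% of all genes did, and at 13 members for H3K27ac, where 20.9% did. It ranked at least 10 points higher than both at 3 members for H3K4me3 (NDUFA1, NDUFA13 and NDUFB5), beside 5.90% of all genes, and at 6 for H3K27ac (NDUFA13, NDUFB5, NDUFB7, SDHD, SDHAF1 and COX8H), beside 9.63%. The members low in GD15M_LM on both marks were NDUFA12, NDUFC2, NDUFAF1, NDUFAF5, SDHA, SDHC, SDHAF3 and UQCR10. These are the same genes named above as higher in GD15M_CM on both marks. The share of all genes low on both marks is not given, so the list is not shown to be particular to the members. Both comparisons use GD15M_LM, so the circular lists are not separate evidence. NDUFAF1, which helps to build the membrane arm, had H3K4me3 percentiles of 97.1, 76.4 and 93.5 and H3K27ac percentiles of 98.5, 71.9 and 97.7.

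Cell type markers moved between these lists as well. The H3K4me3 percentile of smooth muscle markers had a median of 74.7 in GD15M_CM, 90.2 in GD15M_LM and 87.3 in CD15M_CM, with 9 of 10 genes marked in each and CALD1 at 0. That of 8 epithelial markers was 77.6, 58.7 and 73.8, with at most 60.3 for any of them in GD15M_LM, where ELF3 was at 0. The H3K27ac medians lay closer together for smooth muscle markers, at 82.9, 84.2 and 87.9, but not for epithelial markers, at 76.2, 13.6 and 58.5. T cell markers had H3K27ac peaks at 4 of 6 genes in GD15M_CM and at 1 of 6 in both other lists, with CD3D and CD3E at 0 in all 3. Their H3K4me3 peaks were nearly level in number, at 6, 6 and 5 of 6 genes, with median percentiles of 67.4, 59.7 and 52.6. Endothelial markers had H3K4me3 peaks at 6 of 7 genes in each list and macrophage markers at 6, 7 and 7 of 7. H3K27ac peaks were at 3, 3 and 2 of 7 endothelial and 5, 6 and 6 of 7 macrophage markers. The part of cell composition in the differences of the oxidative phosphorylation genes was not tested.

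The comparison of GD15M_CM with CD15M_CM asks what differs with pregnancy in the circular layer. For H3K4me3, 5 of 65 members ranked at least 10 points higher in GD15M_CM, where 12.2% of all genes did, and 10 ranked higher in CD15M_CM, where 23.4% did. For H3K27ac, 12 ranked higher in GD15M_CM, against 27.5% of all genes, and 14 in CD15M_CM, against 27%. The median difference, GD15M_CM minus CD15M_CM, was -1.18 points for H3K4me3 and 0.84 for H3K27ac, beside -2.10 and 0.19 over all genes. By rank among protein-coding genes the counts were 14 and 20 for H3K4me3, beside 25.9% and 29.8% of all genes, and 20 and 23 for H3K27ac, beside 32.8% and 36.3%. By −log10 p they were 2 and 4 for H3K4me3, beside 5.63% and 14.7%, and 6 and 8 for H3K27ac, beside 19.5% and 20.01%. H3K4me3 peaks were longer in CD15M_CM at 47 of the 64 members with a peak in both lists and in 9961 of 13668 genes.

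On both marks at once, 2 of 64 members ranked at least 10 points higher in GD15M_CM, NDUFS4 and COX7A2, beside 6.27% of all genes. In CD15M_CM 2 members did, NDUFAB1 and COX6C, beside 8.84%. The differences of the marks had a Pearson r of 0.332 and a Spearman rho of 0.515 over the 64 members, beside 0.352 and 0.375 over 12709 genes. Fewer members than in the comparison of the layers thus passed 10 points on both marks, 4 against 12, and the comparisons share GD15M_CM.

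COX7A2, on chr1:90696746-90703407, had an H3K4me3 fold enrichment of 20.3 in GD15M_CM, 20.3 in GD15M_LM and 14.2 in CD15M_CM, and an H3K27ac fold enrichment of 5.46, 5.68 and 3.16. The peaks again kept their length, with H3K27ac peaks of 1379, 1261 and 1372 bp. NDUFS4, a subunit of the matrix arm, had H3K4me3 percentiles of 98.7, 98.0 and 83.0 and H3K27ac percentiles of 98.6, 97.3 and 87.8, so that CD15M_CM was the low list on both marks. NDUFAB1, the acyl carrier protein of mitochondria, had H3K4me3 percentiles of 62.2, 63.5 and 81.0 and H3K27ac percentiles of 66.8, 50.5 and 89.2. Its H3K27ac peak in GD15M_CM, of 482 bp, was another peak than in CD15M_CM and GD15M_LM. By −log10 p the order of the layers turned, with NDUFAB1 25.5 points higher in GD15M_LM for H3K27ac. COX6C, a subunit of complex IV, had 88.5, 92.8 and 99.1 for H3K4me3 and 66.0, 62.5 and 98.9 for H3K27ac.

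Several wide differences between pregnant and cyclic circular muscle were in H3K27ac without a difference of 10 points in H3K4me3. NDUFA1, of the membrane arm and on chrX:98219717-98223873, had H3K27ac fold enrichments of 5.28 in GD15M_CM, 7.29 in GD15M_LM and 2.83 in CD15M_CM, at 89.0, 95.2 and 20.2. Its H3K4me3 percentiles were 79.3, 97.0 and 76.2. The H3K27ac peak in CD15M_CM was 1597 bp long, so the mark was present there at low rank. SDHB likewise had a long H3K27ac peak of 2254 bp at low rank in CD15M_CM, beside 2221 bp in GD15M_CM. In the other direction NDUFB5, NDUFC1 and NDUFV1 ranked 69.2, 59.0 and 43.3 points higher in CD15M_CM. For NDUFC1 the lists do not compare the same place. Its H3K27ac peak in CD15M_CM, chr8:87690017-87692280, lay off the gene end at the edge of the 3 kb window. In GD15M_CM H3K27ac also covered 69.0% of the highest H3K4me3 peak at that place, but from outside the window. The GD15M_CM rank came from a peak on the gene end instead. COX7C had the largest H3K4me3 difference among members marked in both lists, 30.6 points higher in CD15M_CM, with fold enrichments of 9.83 in GD15M_CM and 34.9 in CD15M_CM.

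The gene lists next to the pathway were read the same way. Among 16 genes of the tricarboxylic acid cycle, which feeds the chain with NADH and succinate, all had H3K4me3 peaks, with medians of 81.2 in GD15M_CM, 83.2 in GD15M_LM and 89.7 in CD15M_CM. CS, citrate synthase, had an H3K4me3 percentile of 64.6 in GD15M_CM and 96.7 in CD15M_CM. SUCLA2, a subunit of succinyl-CoA synthetase, ranked lower in GD15M_CM than in GD15M_LM on both marks, at 69.5 and 97.4 for H3K4me3 and at 24.1 and 94.95 for H3K27ac. IDH3B, a subunit of isocitrate dehydrogenase, ranked the other way, at 90.3 and 62.6 for H3K4me3 and at 87.3 and 5.39 for H3K27ac. Glycolytic genes had H3K4me3 medians of 83.3, 87.4 and 83.8 over 18 gene models, of which 17 had a peak in each list. Assembly factors of complexes III, IV and V, 12 of which were found, had medians of 83.8, 88.4 and 82.3. Of these, TTC19, a factor of complex III, stood at 94.0 in GD15M_CM and 13.7 in GD15M_LM for H3K27ac.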

How the data were processed

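H3K4me3 and H3K27ac CUT&Tag data of GD15M_CM, GD15M_LM and CD15M_CM (2 gilts per group, day 15) were analysed from 6 peak lists. Per the study's methods, the authors used BWA 0.7.17-r1188 for mapping to Sus scrofa 11.1, SAMtools 1.9 for filtering together with Picard 2.8.3, and MACS2 2.2.6 for peak calling against IgG on pooled replicates. The deposited fold enrichment is the ratio of mark over IgG, whose scaling is not given in the sources used here. The deposited −log10 p values had an unreadable column name and were identified by identity with the study's peak table. A further −log10 column, taken as q, was not used. Peak length is in bp. Library depth is not in the lists, so no precision by depth could be given.

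Groups were taken from sample titles. Gene positions came from the RefSeq table of the same assembly, Sscrofa11.1. It lists 19484 protein-coding genes on the chromosomes used and has no strand, so peaks overlapping 3 kb around either gene end by at least 1 bp were used. Differences of at least 10 percentile points were counted. No test was run, since each mark and group is 1 list. Named were members without a peak, the 3 members of largest difference in each direction per mark and comparison, isoform families, core subunits, the 3 highest and 3 lowest means, the 3 longest peaks, and, after values were seen, members past 10 points on both marks and genes beside another gene end. Of 35 genes fixed by name, 17 were found under those symbols. Single values of 1 member, which stays in all counts, are not reported here. The members and lists were chosen with earlier results of these data known. Steps were tested on simulated data, with 0 wrong values, and were run in Python 3.11.15. The packages were NumPy 2.4.6, SciPy 1.17.1, pandas 2.3.3 and, for figures, Matplotlib 3.10.9.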

Additional observations from a re-analysis of the deposited data

How the results depend on the processing

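No paired analysis was possible because peaks were called on the pool of both gilts, and for the same reason no replicate could be left out. The choice of the end where transcription starts and the search for promoter motifs were not run, since strand and promoter sequence were not used here. With a 1 kb window, with at least 50% of the peak in the window, with equal numbers of top peaks, and with the 14 ATP synthase genes of older symbols added, each count stayed within 1.5 times its value. The last of these, and a split by neighbouring genes, were chosen after seeing the data. The 24 largest differences of single genes kept their sign under ranking by −log10 p, equal numbers of top peaks and rank among genes. Most were smaller by −log10 p, such as 10.7 points in place of 56.1 for H3K27ac at NDUFB7 between the layers. Those of NDUFS4 and COX8H for H3K4me3 were not. Outside these 24 the sign could turn. Between the layers the H3K27ac difference of NDUFV1 was -3.50 by −log10 p, beside 18.2 by fold enrichment. That of NDUFAB1 was 25.5 by −log10 p, beside -16.3 by fold enrichment.

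Counts of members past 10 points depended on the scale. In the order GD15M_LM over GD15M_CM, the reverse, GD15M_CM over CD15M_CM and the reverse, H3K4me3 gave 19, 23, 11 and 20 with a stricter threshold (−log10 p at or above 10, fold enrichment at or above 5), and 21, 24, 14 and 20 by rank among protein-coding genes. All genes passed at 34.8%, 27.4%, 25.7% and 34.7% with the stricter peaks and at 30.02%, 28.5%, 25.9% and 29.8% by rank. By −log10 p the last 3 counts were 8, 2 and 4, beside 13.8%, 5.63% and 14.7% of all genes. H3K27ac, without the second comparison, which stayed within 1.5 times, gave 28, 22 and 22 with the stricter peaks, 21, 20 and 23 by rank among genes and 7, 6 and 8 by −log10 p. The shares of all genes were 47.6%, 43.2% and 39.2%, then 34.2%, 32.8% and 36.3%, then 15.2%, 19.5% and 20.01%. Joining peaks less than 1 kb apart lengthened the members' median H3K4me3 peak to 3299.5, 3387.5 and 3733 bp in GD15M_CM, GD15M_LM and CD15M_CM. With the stricter peaks 42 of 65 members had H3K27ac in GD15M_CM. Among the 19 members beside no other gene, 5.26% ranked higher in GD15M_LM than in GD15M_CM for H3K4me3, against 10.8% of all 65, and 36.8% ranked lower, against 23.1%. In CD15M_CM 26.3% ranked higher than in GD15M_CM for H3K4me3, against 15.4%. For H3K27ac 10.53% ranked higher in GD15M_LM than in GD15M_CM, against 20% of all 65. Between the circular lists the H3K27ac balance turned, with 31.6% higher in GD15M_CM and 15.8% in CD15M_CM, against 18.5% and 21.5%.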

Other observations

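Core regulators of mitochondrial gene expression were read beside the oxidative phosphorylation genes, and 12 of 13 had an H3K4me3 peak in each list. PPARGC1B, a coactivator of mitochondrial biogenesis, had H3K4me3 percentiles of 67.8 in GD15M_CM, 96.2 in GD15M_LM and 92.5 in CD15M_CM, under peaks of 5805, 8192 and 7859 bp. Its relative PPARGC1A had no H3K27ac peak near its ends in GD15M_CM, while H3K27ac stood at 76.2 in GD15M_LM and 93.7 in CD15M_CM, and its H3K4me3 percentiles were 67.7, 71.3 and 71.5. TFAM, which packages mitochondrial DNA and helps to start its transcription, ranked the other way, lowest in GD15M_LM. It stood at 87.7, 70.3 and 88.1 for H3K4me3 and 90.1, 58.5 and 98.5 for H3K27ac. POLRMT, the mitochondrial RNA polymerase, was also lowest in GD15M_LM for H3K27ac, at 60.6, 13.7 and 96.2. Between the layers the regulators named here thus did not all go the same way. By any margin, 10 of 12 regulators with a peak ranked lower in GD15M_CM than in CD15M_CM for H3K4me3, beside 8456 of 14278 genes. For H3K27ac 9 of 12 ranked lower in GD15M_LM than in GD15M_CM, beside 8029 of 14246 genes. The other comparisons were more even, with 7 of 12 higher in GD15M_LM than in GD15M_CM for H3K4me3. Between the circular lists 7 of 12 ranked lower in GD15M_CM for H3K27ac. GABPA, a transcription factor known to act on nuclear genes of oxidative phosphorylation, and ATP5J, which encodes coupling factor 6 of ATP synthase, took the same highest peak in each list. That peak had H3K4me3 percentiles of 70.6, 93.5 and 72.7 and H3K27ac percentiles of 98.3, 90.7 and 97.0.

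SLC25A5, an exchanger of ADP and ATP in the inner membrane, had its lowest rank in GD15M_CM on both marks. Its H3K4me3 percentile was 68.2 in GD15M_CM, 85.8 in GD15M_LM and 82.1 in CD15M_CM, and its H3K27ac percentile was 14.3, 73.1 and 54.9. CYCS, cytochrome c, the carrier between complexes III and IV, had an H3K27ac percentile of 85.3 in GD15M_CM and 32.6 in CD15M_CM.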
